A study of Homo sapiens with 12 samples.

Results

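The mRNA levels of 53 genes of the G2 phase and of mitosis were compared in prostate cancer cells given inhibitors of histone lysine demethylases. The genes were taken by name as mitotic cyclins and kinases and as components of the kinetochore, the spindle and the cytokinetic furrow, with earlier results of these data known, and each of the 53 was found among the 60675 genes of every count table. C4-2 (LNCaP:C42 in the labels) is known as a castration-resistant derivative of LNCaP, an androgen-dependent line from a prostate cancer metastasis, but marker levels given below put the identity of the cells labelled LNCaP in doubt. R1881, a synthetic androgen, was present at 1 nM in all 12 libraries. In C4-2 the groups were R1881 alone, R1881 with namoline (an inhibitor of the lysine demethylase KDM1A) at 50 µM, R1881 with TCE-5002 (an inhibitor selective for KDM7A which, per the study, also acts on PHF8 and KDM2A), and R1881 with both inhibitors (the combination). The cells labelled LNCaP had R1881 alone or the combination, each group held 2 libraries, treatment lasted 72 h, and the R1881 groups received DMSO as vehicle. The series text lists TCE-5002 at 100 µM whereas the methods of the study name a lower dose, so its dose is uncertain, and so is whether the single inhibitors were compared at equal doses.

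A cell enters mitosis when cyclin B and CDK1 form an active kinase, helped by CDC25 phosphatases, polo-like and Aurora kinases. The kinetochore then ties each centromere to spindle microtubules, the spindle checkpoint holds back CDC20 and the anaphase-promoting complex until all chromosomes are attached, and cytokinesis divides the cell. Transcripts for these proteins accumulate from S phase into G2 and are low in G0 and G1, so in bulk RNA they are known as a readout of proliferation. Many of their promoters hold a cell cycle genes homology region (CHR), which the MuvB complex binds: with E2F4 and a retinoblastoma-related protein it represses them, and with MYBL2 and FOXM1, both among the 53, it activates them. In bulk RNA, fewer cells in G2 or mitosis and less of a transcript per cell cannot be told apart.

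Promoter letters are shown because they are a shared feature of these genes that the choice of genes did not use. RefSeq windows (GRCh38.p14), from 250 bases before to 50 bases after the transcription start, were at hand for 47 of the 53 genes (59 windows, 7 genes having several). CHR letters, TTTGAA or TTCGAA on either strand, stood in 39 of 59 windows (66.1%), against 16.4% of the 35116 windows of all genes. From 100 bases before to 50 after the start, the shares were 59.3% and 7.4%. CCAAT, the letters read by NF-Y, stood in 69.5% of the members' windows against 34.6% of all. Letters read by E2F factors (any of TTTCCCGC and TTTGGCGC and also TTTCGCGC and TTTGCCGC) stood in 8.5% against 3.3%. By gene, 36 of 47 held CHR letters (76.6%, against 19.5% of the 27305 genes with windows). They stood as TTTGAA in 33 and as TTCGAA in 4, and in 24 genes they began within 100 bases before the start. The motifs were counted separately even where they lay side by side. The 150 bases before the start of CCNB2, PLK1, CDC20 and CDK1 are printed 5′ to 3′ with motif letters on either strand in capitals, since all 4 hold CHR letters near the start but the first 3 fell and CDK1 rose with TCE-5002. They lie on the plus strand at chr15:59104996-59105145, chr16:23678739-23678888, chr1:43358831-43358980 and chr10:60778328-60778477, before the RefSeq start. The gene models of the count tables begin earlier for all 4. The whole PLK1 stretch, nearly all of that of CDK1 and part of those of CCNB2 and CDC20 thus lie within the span of the counted gene.
CCNB2: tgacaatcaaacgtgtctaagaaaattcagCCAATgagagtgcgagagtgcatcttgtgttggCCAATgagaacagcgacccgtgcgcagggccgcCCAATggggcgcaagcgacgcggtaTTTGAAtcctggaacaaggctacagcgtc
PLK1: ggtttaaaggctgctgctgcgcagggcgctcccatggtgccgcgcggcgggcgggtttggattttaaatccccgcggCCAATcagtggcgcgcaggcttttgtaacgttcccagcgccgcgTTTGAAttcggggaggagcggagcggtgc
CDC20: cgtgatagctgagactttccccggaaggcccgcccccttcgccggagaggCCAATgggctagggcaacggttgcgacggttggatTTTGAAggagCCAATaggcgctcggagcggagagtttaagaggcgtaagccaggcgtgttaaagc
CDK1: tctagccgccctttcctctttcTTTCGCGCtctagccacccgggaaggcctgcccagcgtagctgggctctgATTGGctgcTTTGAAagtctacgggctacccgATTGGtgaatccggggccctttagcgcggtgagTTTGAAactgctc
In CCNB2 and PLK1 a CCAAT or a run of them lies upstream of a single TTTGAA. CDC20 has TTTGAA between a pair of CCAAT. In the stretch shown, CDK1 carries CCAAT on the minus strand (ATTGG) and TTTGAA at 2 places each and, farther upstream, the E2F letters TTTCGCGC. The other members with E2F letters were CENPA, KIF15 and NUSAP1.

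**Figure D1:**
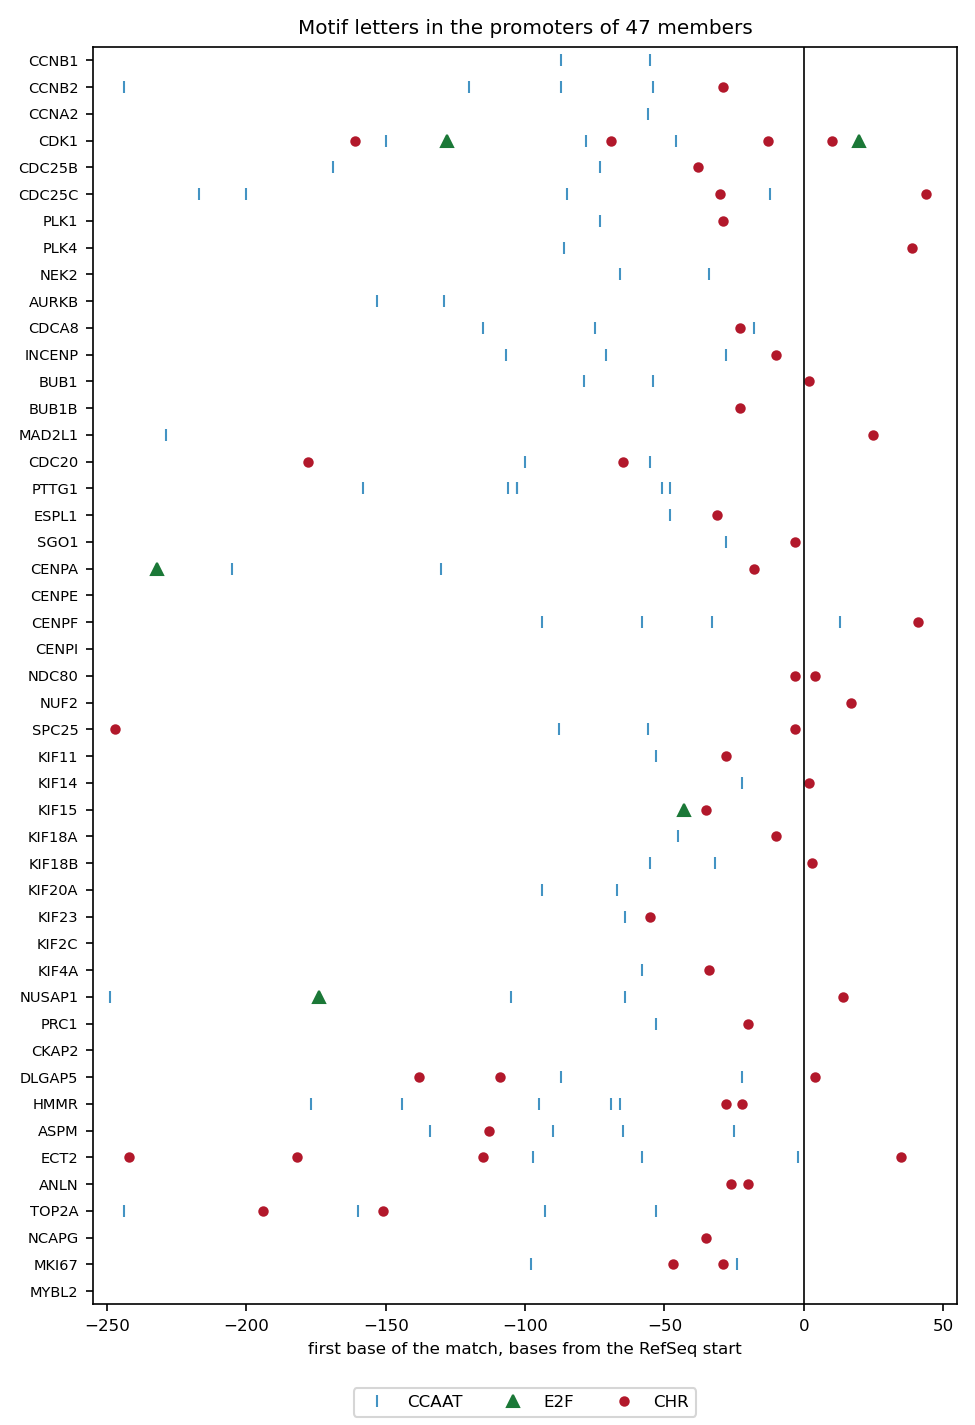
Positions of CHR, CCAAT and E2F letters (symbols) in the promoter windows of 47 members (rows), with the first base of each match in bases from the RefSeq transcription start (x axis, start at 0). CHR letters (circles) stand in 36 of 47 genes (76.6%, against 19.5% of all genes with windows) and begin within 100 bases before the start in 24 of them. E2F letters (triangles) appear in 4 (8.5%, against 4.0%).

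Library totals ran from 14791602 to 20690819 gene counts. The lowest count of any member in any library was 20 (CDC25C), and all 53 passed the filter on low counts in each fit. Levels are given as CPM, a count scaled to a common effective library size, in the order of replicates 1 and 2. Differences are log2 fold changes from edgeR's quasi-likelihood test with their standard error (SE), and a gene passed at a p-value under 0.05 after Benjamini-Hochberg adjustment over all genes tested. The members moved together between replicates of a group: replicate 1 was the higher one for 52 of 53 genes in C4-2 with R1881 alone and for 50 in the C4-2 combination, and for none of the 53 in C4-2 with namoline, where the median difference of replicate 1 from replicate 2 was -0.36 on the log2 scale. The TCE-5002 replicates differed most over all genes (chi-square per gene 24.8, against 3.34 to 8.71 in the other groups), but their members were split, 30 of 53 being higher in replicate 1. Over expressed genes, the difference of replicate 1 from replicate 2 followed GC content most in this group. The Spearman correlation was -0.78, against -0.53 to 0.62 in the other groups. Whether the split of the members followed GC content was not tested. Luminal prostate markers (11 genes, none at 0 counts in both libraries) summed to 3903 to 4058 CPM in C4-2 with R1881 alone and, in the libraries labelled LNCaP, to 920.8 to 990.2 with R1881 alone and 414.4 to 539.3 with the combination. Mesenchymal markers (9 genes) summed to 79.87 to 81.48 CPM in the former, with CDH2, ZEB2, SPARC and COL3A1 at 0, and in the libraries labelled LNCaP to 843.1 to 942.3 with R1881 alone and 766.6 to 800.8 with the combination. The mean with R1881 alone was 42.07 CPM there against 978 in C4-2 for CDH1 (E-cadherin), 3.756 against 138.7 for EPCAM, 686.7 against 2.45 for VIM (vimentin) and 110.5 against 0.1626 for NCAM1, so that the labelled line is in doubt and the comparisons between lines hold for these cells as labelled. Some markers of these lists went the other way with R1881 alone. The luminal KLK3 was at 376.3 CPM in the libraries labelled LNCaP against 217 in C4-2. The mesenchymal COL1A1 was at 4.449 against 50.2, and COL1A2 was very low in both (0.023 against 0.07). Neuroendocrine markers (5 genes) ran from 1.378 to 3.381 CPM in C4-2 groups and from 126.7 to 135.7 in the others. Basal markers (4 genes) and lymphoid and myeloid markers (6 genes) summed to at most 0.66 and 4.098 CPM in any library. Among the C4-2 groups, luminal markers summed to 4477 to 4787 CPM with namoline, 5875 to 5988 with TCE-5002 and 2532 to 2534 with the combination, and mesenchymal markers stayed between 63.24 and 102.5. The part of these markers in the results was not tested. The libraries labelled LNCaP are called LNCaP-labelled. In the header of the first LNCaP-labelled combination library, the name of the alignment holds namoline but not TCE-5002, so that its results are also given without it.

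With R1881 alone, the summed level of the 53 genes was 2854 and 2315 CPM in C4-2 (mean 2584 ± 381, SD, n = 2). It was 2540 and 3285 (mean 2913 ± 527) with namoline, which overlapped R1881 alone, 1289 and 1222 (mean 1256 ± 47.8) with TCE-5002 and 1041 and 814.7 (mean 928.1 ± 160) with the combination. TCE-5002 libraries were thus below all libraries without it, and those of the combination were lower again. Per kb of exon length, CCNB1 stood highest in C4-2 with R1881 alone at 45.6 CPM per kb, followed by HMMR at 28.3 and TPX2 at 24.4, which overlapped between libraries. KIF15 (1.4), CENPI (1.5) and ESPL1 (2.11) were the lowest on the same scale.

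**Figure D2:**
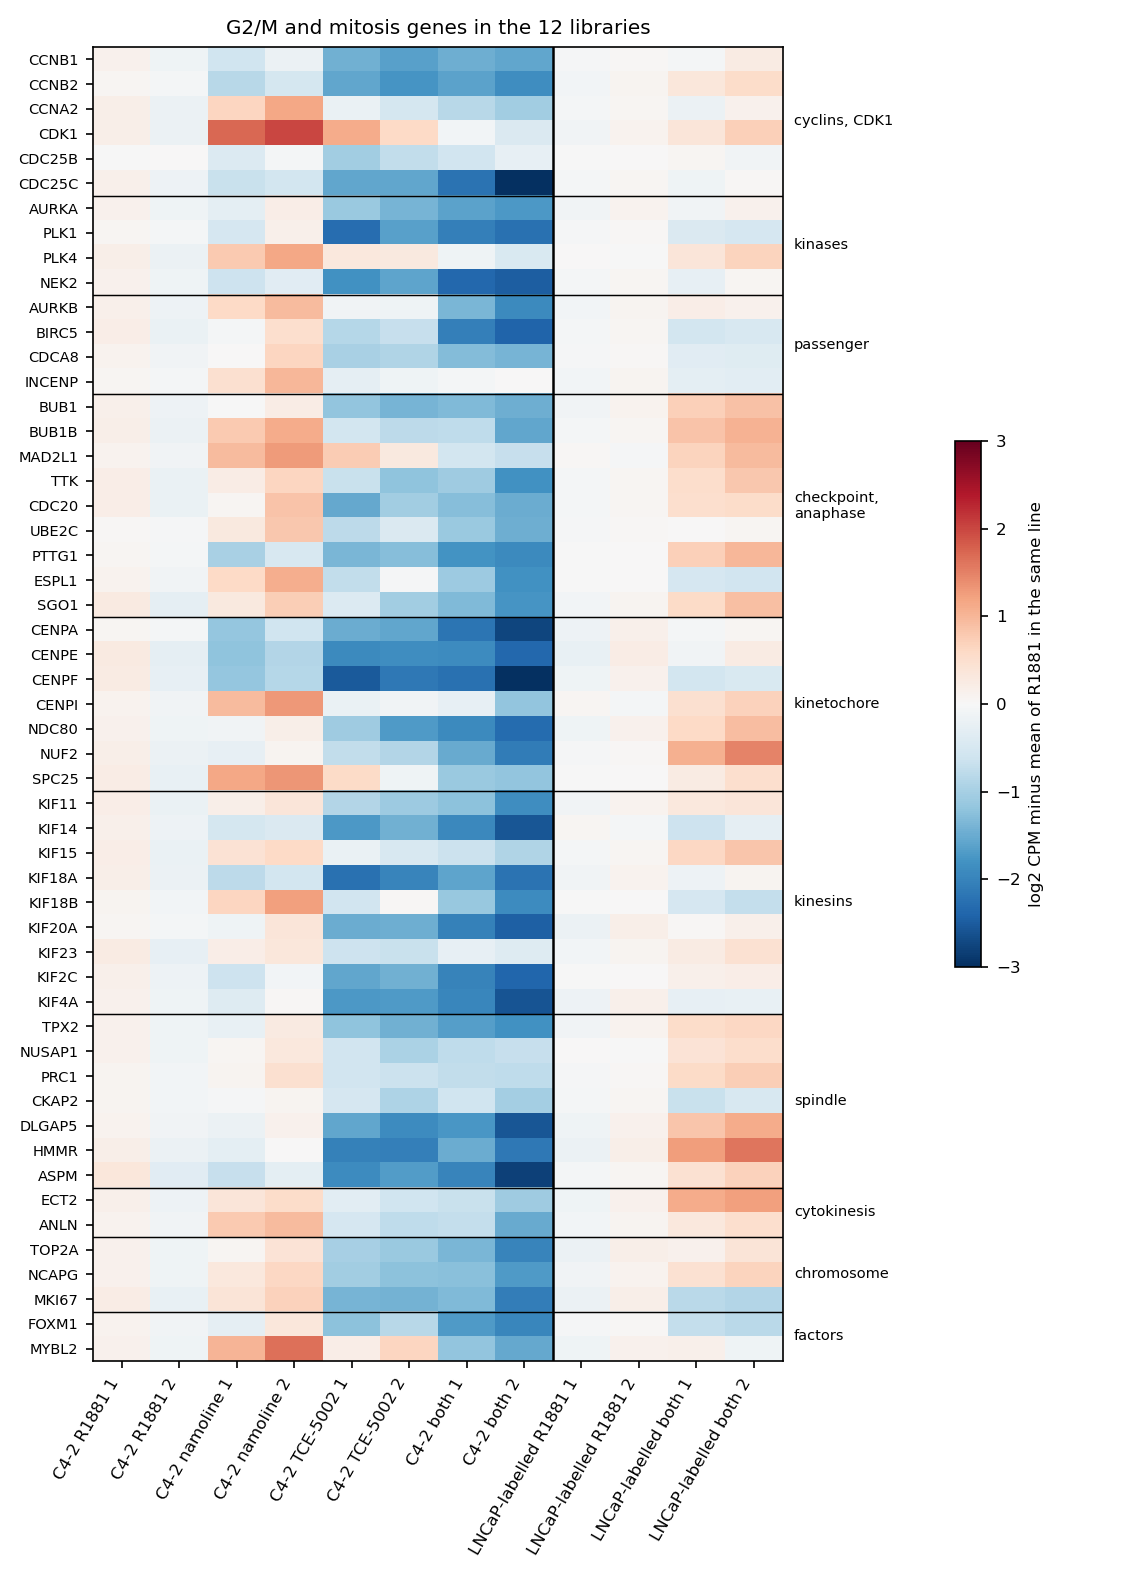
Colour gives the log2 CPM of each of the 53 genes (rows, grouped by role) in each of the 12 libraries (columns) minus the mean of R1881 alone in the same line, with values beyond 3 in either direction shown in the end colour. C4-2 libraries with TCE-5002 are blue in nearly every row, namoline libraries are mixed, and the LNCaP-labelled combination libraries are mostly pale red.

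The single inhibitors parted these genes in C4-2. All 53 estimates were lower with TCE-5002 than with namoline, 52 passed (against 8.91% of the 17702 genes tested being lower and 9.25% higher), and 35 were also at least 2-fold lower (against 2.42%). The median difference of TCE-5002 from namoline was -1.21, with a range from -1.95 (MKI67) to -0.57 (MAD2L1), beside a median over all genes of 0.02. For each of the 53, both TCE-5002 libraries lay below both namoline libraries, which was so for 27.3% of all genes tested. CENPA was the one gene that did not pass, at -0.71 (SE 0.24, adjusted p 0.0519). Without namoline replicate 2 the number passing was 36, with 22 at least 2-fold and a median of -0.93.

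**Figure D3:**
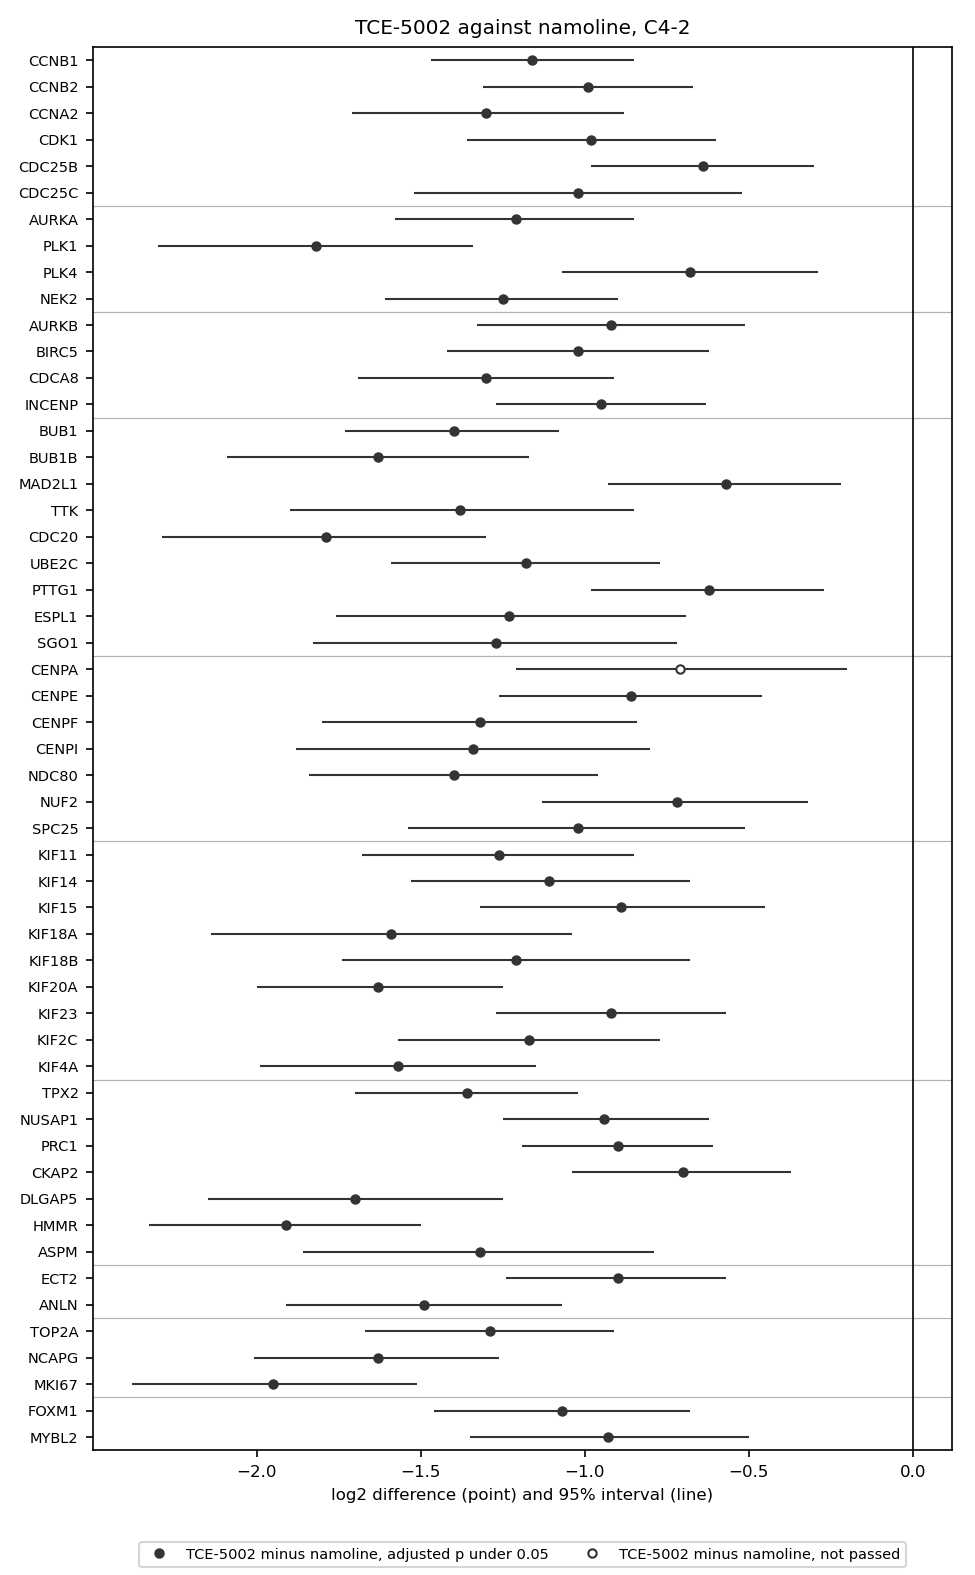
The log2 difference of TCE-5002 from namoline in C4-2 (x axis; point with 95% interval) for the 53 genes (rows, in the order of their roles). Every point lies left of 0, from -1.95 for MKI67 to -0.57 for MAD2L1, and only CENPA is open (not passed).

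Set against R1881 alone, the estimates for the inhibitors share the 2 R1881 libraries. With namoline, 16 genes rose (18.7% of all genes did) and 10 fell (16.3%), 5 and 2 of them at least 2-fold (5.17% and 6.88% of all), while 27 did not pass. The split of those at least 2-fold became 2 up and 4 down without namoline replicate 2, 10 and 0 without namoline replicate 1, 9 and 0 without R1881 replicate 1, and 8 and 0 when GC content was corrected for. The median was 0.22. Without namoline replicate 2 the median was -0.03, and without R1881 replicate 1 it was 0.38. None of the 53 was higher in namoline replicate 1 than in replicate 2, and 52 were higher in R1881 replicate 1. The numbers that rose or fell depended on the library left out. The falls with namoline named below are those of the fit with all libraries. Both namoline libraries lay below both R1881 libraries for 11 genes and above both for 21. With TCE-5002, 41 genes fell (16.7% of all genes) and 2 rose (19.9%), and 27 fell at least 2-fold (6.8%). The median was -1.02. With the combination 49 fell (25.6% of all genes, while 24.8% rose), 41 at least 2-fold (12.8%), with a median of -1.60. No estimate of the combination was above 0, and the 4 genes that did not pass were INCENP at -0.05 (adjusted p 0.824), CDK1 at -0.28 (adjusted p 0.211), PLK4 at -0.35 (adjusted p 0.153) and KIF23 at -0.37 (adjusted p 0.0698).

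**Figure D4:**
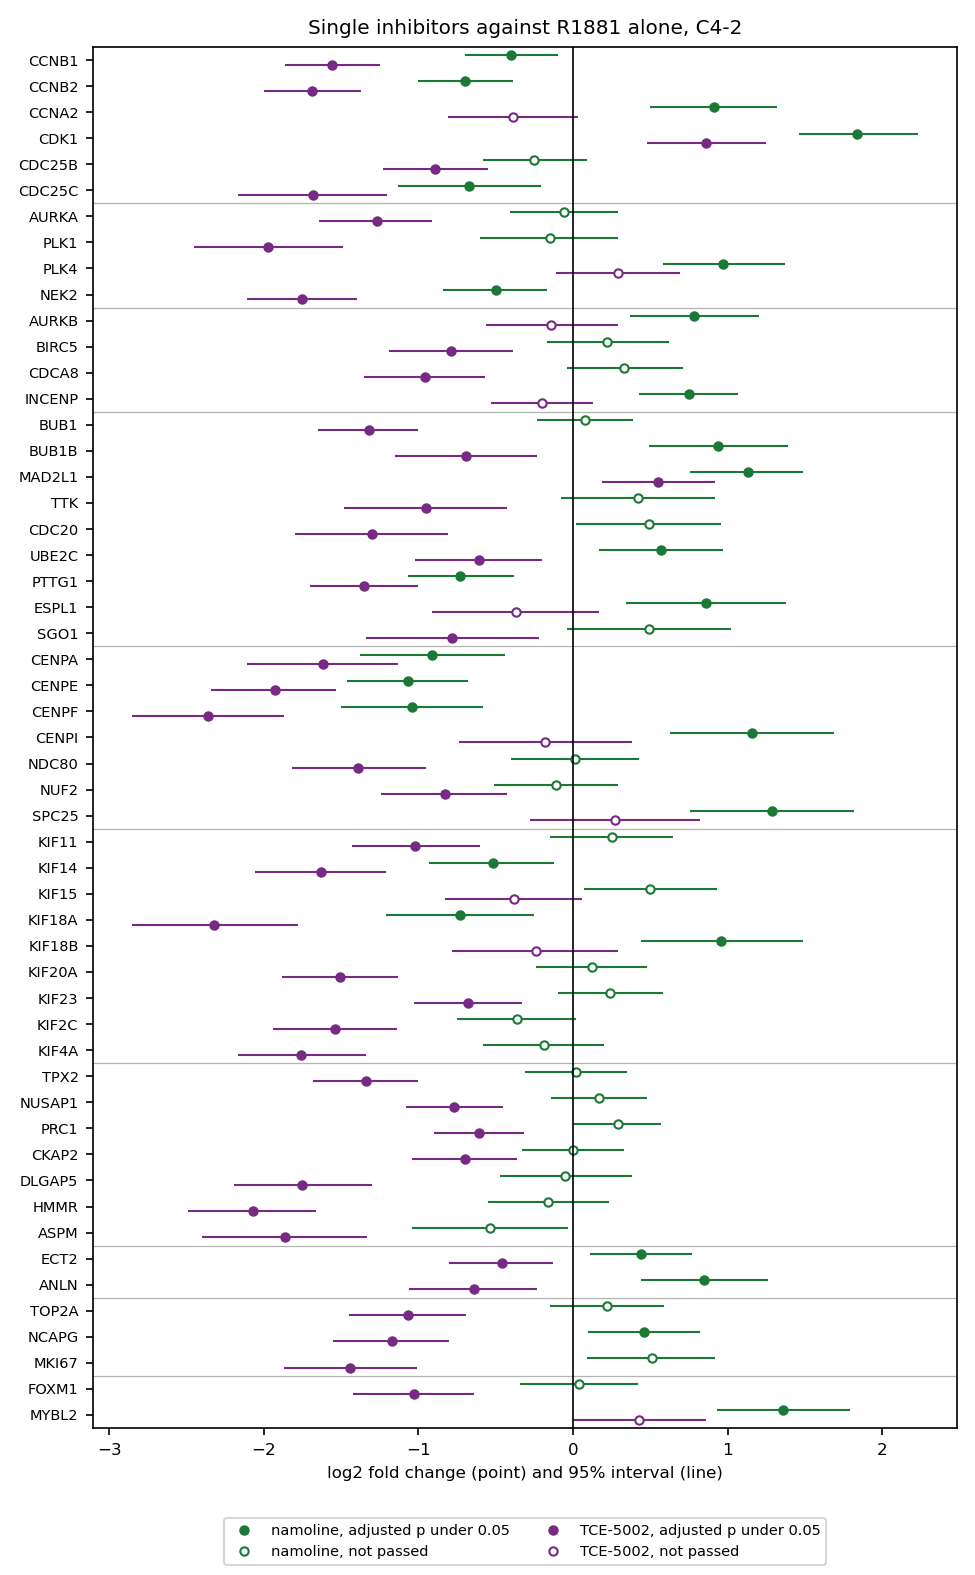
Log2 fold change against R1881 alone in C4-2 (x axis; point with 95% interval) with namoline (green) and TCE-5002 (purple) for the 53 genes (rows); filled points passed. Namoline points lie on both sides of 0, with CDK1 farthest right at 1.84 and CENPE farthest left at -1.07, and TCE-5002 points lie mostly left, down to -2.36 for CENPF.

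Among the cyclins, CDK1 and its phosphatases, all 6 were lower with TCE-5002 than with namoline. CCNB1 (cyclin B1, the partner that CDK1 needs to start mitosis; ENSG00000134057, chromosome 5, 69167010 to 69178245, GRCh38) was at 126 and 107 CPM with R1881 alone, 77 and 102 with namoline, 42.1 and 37.2 with TCE-5002 and 42 and 39.3 with the combination. All libraries with TCE-5002 were below all libraries without it, and the combination overlapped TCE-5002 alone. The log2 fold change was -0.40 (SE 0.14, adjusted p 0.0389) with namoline, -1.56 (SE 0.14, adjusted p 3.02e-06) with TCE-5002 and -1.54 (SE 0.15, adjusted p 1.25e-06) with the combination, and -1.16 (SE 0.14, adjusted p 0.000124) for TCE-5002 against namoline. CDK1, the kinase itself (ENSG00000170312, chromosome 10, 60778331 to 60794852), was at 65.8 and 50.8 CPM with R1881 alone, 193 and 232 with namoline, 125 and 87.3 with TCE-5002 and 54.9 and 42.9 with the combination. Its namoline libraries were the highest, TCE-5002 libraries lay between these and R1881 alone, and the combination overlapped R1881 alone. CDK1 rose with either inhibitor, by 1.84 (SE 0.18, adjusted p 3.38e-06) with namoline and 0.86 (SE 0.18, adjusted p 0.00183) with TCE-5002, and the difference of TCE-5002 from namoline was -0.98 (SE 0.18, adjusted p 0.00181). CCNA2 (cyclin A2, which works in S phase and G2; ENSG00000145386, chromosome 4, 121816444 to 121823933) was at 18.4 and 14.6 CPM with R1881 alone, 25.9 and 37.1 with namoline, 14.2 and 11.2 with TCE-5002 and 9.03 and 7.64 with the combination. Namoline libraries were above and combination libraries below all others, the former with 0.91 (SE 0.19, adjusted p 0.00206) and the latter with -1.01 (SE 0.21, adjusted p 0.000966), whereas TCE-5002 gave -0.39 (adjusted p 0.141). CCNB2, a further B-type cyclin, fell in all treated groups, with log2 fold changes of -0.70 (adjusted p 0.00175), -1.69 (adjusted p 1.97e-06) and -1.78 (adjusted p 5.37e-07) for namoline, TCE-5002 and the combination. Of the phosphatases that activate CDK1, CDC25C fell with -0.67 (adjusted p 0.0264), -1.68 (adjusted p 7.42e-05) and -2.86 (adjusted p 9.1e-07) in the same order, the last being the lowest combination value of the 53. CDC25B had the smallest difference of TCE-5002 from namoline in this group, -0.64 (SE 0.16, adjusted p 0.0124), and was the one member that passed as higher with the combination than with TCE-5002 alone, by 0.46 (SE 0.16, adjusted p 0.0231).

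Of the mitotic kinases, PLK1, AURKA and NEK2 fell with TCE-5002 and PLK4 did not pass. PLK1, which acts in centrosome maturation and mitotic entry (ENSG00000166851, chromosome 16, 23677656 to 23690367), was at 46.6 and 43 CPM with R1881 alone, 31.5 and 50.2 with namoline, 8.76 and 14.1 with TCE-5002 and 10.4 and 9.14 with the combination. Namoline overlapped R1881 alone, and the TCE-5002 and combination libraries overlapped each other well below. TCE-5002 gave -1.97 (SE 0.22, adjusted p 1.8e-05) against R1881 and -1.82 (SE 0.22, adjusted p 0.000119) against namoline. AURKA (Aurora A, a kinase of centrosomes and spindle poles; ENSG00000087586, chromosome 20, 56369389 to 56392337) was at 58.6 and 48.5 CPM with R1881 alone, 43.2 and 61 with namoline, 24.4 and 20.0 with TCE-5002 and 17.1 and 15.8 with the combination. Its namoline and R1881 libraries overlapped, with -0.06 (adjusted p 0.81), and the combination libraries were below those of TCE-5002. The log2 fold change was -1.27 (SE 0.17, adjusted p 6.29e-05) with TCE-5002 and -1.73 (SE 0.17, adjusted p 2.35e-06) with the combination. NEK2, which acts in centrosome separation, fell with each treatment, at -0.50 (adjusted p 0.021), -1.75 (adjusted p 3.24e-06) and -2.55 (adjusted p 7.58e-08) for namoline, TCE-5002 and the combination. PLK4, the kinase of centriole duplication, rose with namoline, 0.97 (SE 0.18, adjusted p 0.000993), and had the smallest difference of TCE-5002 from namoline among the kinases, -0.68 (SE 0.18, adjusted p 0.0184).

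All 4 genes of the chromosomal passenger complex, which corrects wrong attachments at centromeres, were lower with TCE-5002 than with namoline. AURKB (Aurora B, its kinase; ENSG00000178999, chromosome 17, 8204733 to 8210600) was at 13.6 and 10.9 CPM with R1881 alone, 18.6 and 24.1 with namoline, 11.2 and 11.2 with TCE-5002 and 4.43 and 2.88 with the combination. Namoline libraries were above R1881 alone, TCE-5002 libraries lay within the R1881 range, and combination libraries were below all others. Namoline gave 0.78 (SE 0.19, adjusted p 0.0059), TCE-5002 -0.14 (adjusted p 0.624) and the combination -1.76 (SE 0.22, adjusted p 1.86e-05). BIRC5 (survivin; ENSG00000089685, chromosome 17, 78214186 to 78225636) was at 69.3 and 51.8 CPM with R1881 alone, 57.6 and 85.7 with namoline, 33.1 and 36.9 with TCE-5002 and 14.2 and 11 with the combination. Here the levels of the combination were below those of TCE-5002, which in turn were below those of R1881 alone and of namoline. The combination lay -1.50 (SE 0.2, adjusted p 2.27e-05) from TCE-5002 alone and -2.29 (SE 0.2, adjusted p 8e-07) from R1881. CDCA8 (borealin) had the largest difference of TCE-5002 from namoline in the complex, -1.30 (SE 0.18, adjusted p 0.000319). INCENP, its scaffold, rose with namoline, 0.75 (SE 0.15, adjusted p 0.00148), but had -0.20 (adjusted p 0.333) with TCE-5002 and was nearest to 0 of the 53 with the combination.

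The genes of the spindle checkpoint and of anaphase control numbered 9, all lower with TCE-5002 than with namoline. CDC20, the activator of the anaphase-promoting complex that the checkpoint holds back (ENSG00000117399, chromosome 1, 43358955 to 43363203), was at 52.5 and 40.2 CPM with R1881 alone, 48.1 and 83.8 with namoline, 15.6 and 22.1 with TCE-5002 and 18.5 and 16.2 with the combination. Namoline overlapped the R1881 range and reached above it, and TCE-5002 and combination libraries overlapped below. TCE-5002 differed from R1881 by -1.30 (SE 0.23, adjusted p 6e-04) and from namoline by -1.79 (SE 0.23, adjusted p 0.000159), the largest difference of the group. BUB1, a checkpoint kinase (ENSG00000169679, chromosome 2, 110637698 to 110678114), was at 45.5 and 36.7 CPM with R1881 alone, 40.4 and 47.6 with namoline, 17.7 and 15.2 with TCE-5002 and 15.9 and 14.6 with the combination. As for CDC20, namoline and R1881 overlapped and so did TCE-5002 and the combination. Its values were -1.32 (SE 0.15, adjusted p 1.99e-05) with TCE-5002, -1.46 (SE 0.15, adjusted p 3.73e-06) with the combination and 0.08 (SE 0.15, adjusted p 0.708) with namoline. MAD2L1 (MAD2, which with BUB1B inhibits CDC20) rose with either inhibitor, 1.13 (SE 0.17, adjusted p 0.00016) with namoline and 0.55 (SE 0.17, adjusted p 0.0198) with TCE-5002, but fell with both, -0.67 (SE 0.18, adjusted p 0.00653). BUB1B rose with namoline and fell with TCE-5002, with 0.94 (adjusted p 0.00302) and -0.69 (adjusted p 0.0211), as did UBE2C, the ubiquitin-conjugating enzyme of the anaphase-promoting complex, with 0.57 (adjusted p 0.027) and -0.61 (adjusted p 0.022). TTK, the kinase that starts the checkpoint signal, had -0.95 (adjusted p 0.00742) with TCE-5002, and SGO1, which protects centromeric cohesion, -0.78 (adjusted p 0.0311). Securin (PTTG1) fell with namoline, -0.73 (SE 0.16, adjusted p 0.00293), and with TCE-5002, -1.35 (SE 0.17, adjusted p 3.16e-05), while ESPL1 (separase, which securin inhibits) rose with namoline, 0.86 (SE 0.25, adjusted p 0.0139), and had -0.37 (adjusted p 0.279) with TCE-5002. All 9 fell with the combination, the range being -1.93 (PTTG1) to -0.67 (MAD2L1).

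The 7 centromere and kinetochore genes held the members that fell most with namoline. CENPE, a kinesin that moves chromosomes to the spindle equator (ENSG00000138778, chromosome 4, 103105806 to 103198409), was at 111 and 77.2 CPM with R1881 alone, 40.1 and 50.5 with namoline, 24.2 and 25.1 with TCE-5002 and 24.7 and 17.7 with the combination. All namoline libraries were below R1881 alone and above TCE-5002, which overlapped the combination. CENPE fell to a log2 fold change of -1.07 (SE 0.18, adjusted p 0.000428) with namoline and -1.93 (SE 0.19, adjusted p 4.74e-06) with TCE-5002. CENPA, the histone H3 variant that marks centromeres (ENSG00000115163, chromosome 2, 26764289 to 26801067), was at 14.3 and 13.2 CPM with R1881 alone, 5.86 and 8.94 with namoline, 4.61 and 4.34 with TCE-5002 and 2.61 and 1.63 with the combination. Its 4 groups did not overlap and stepped down in that order, with log2 fold changes of -0.91 (SE 0.22, adjusted p 0.00509), -1.62 (SE 0.23, adjusted p 1e-04) and -2.71 (SE 0.26, adjusted p 1.28e-06) from R1881 alone. CENPF, a large kinetochore protein, fell to a log2 fold change of -1.04 (adjusted p 0.00192), -2.36 (adjusted p 4.18e-06) and -2.64 (adjusted p 7.05e-07), its TCE-5002 value being the lowest of the 53. In the NDC80 complex, which grips microtubules, 3 subunits are among the 53. With namoline, NDC80 had 0.01 (adjusted p 0.969) and NUF2 -0.11 (adjusted p 0.685), but SPC25 rose by 1.29 (SE 0.25, adjusted p 0.00104). With TCE-5002, NDC80 and NUF2 fell to a log2 fold change of -1.39 (adjusted p 0.000141) and -0.83 (adjusted p 0.00352), and SPC25 had 0.27 (adjusted p 0.443). CENPI, of the inner kinetochore, rose with namoline, 1.16 (adjusted p 0.00238). NDC80 had the largest difference of TCE-5002 from namoline in this group, -1.40 (SE 0.2, adjusted p 0.000405).

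All 9 kinesins were lower with TCE-5002 than with namoline. KIF11 (Eg5, which pushes spindle poles apart; ENSG00000138160, chromosome 10, 92593286 to 92655395) was at 42 and 31.5 CPM with R1881 alone, 41.3 and 47.2 with namoline, 19.7 and 16.8 with TCE-5002 and 15.1 and 9.58 with the combination. Namoline overlapped R1881 alone, and combination libraries were below those of TCE-5002. It fell to a log2 fold change of -1.02 (SE 0.19, adjusted p 0.00102) with TCE-5002 and of -1.60 (SE 0.2, adjusted p 1.73e-05) with the combination. KIF20A, which brings the passenger complex to the midzone in anaphase (ENSG00000112984, chromosome 5, 138178719 to 138187715), was at 47.8 and 43.6 CPM with R1881 alone, 41.4 and 59.2 with namoline, 16 and 16.2 with TCE-5002 and 10.7 and 7.95 with the combination. The namoline range held both R1881 values, TCE-5002 replicates were almost equal, and the combination was lower again. The values were -1.51 (SE 0.18, adjusted p 2.2e-05) with TCE-5002, -2.31 (SE 0.19, adjusted p 3.38e-07) with the combination and -1.63 (SE 0.18, adjusted p 4.73e-05) for TCE-5002 against namoline, the largest of the kinesins. KIF18A, which dampens chromosome movements at metaphase, fell with namoline, -0.73 (adjusted p 0.0204), and more with TCE-5002, -2.32 (adjusted p 1.16e-05). KIF14, a kinesin of cytokinesis, fell with both as well, with -0.52 (adjusted p 0.0423) and -1.63 (adjusted p 2.9e-05). KIF18B, a partner of the microtubule depolymerase KIF2C, rose with namoline, 0.96 (adjusted p 0.00696), and had -0.24 (adjusted p 0.48) with TCE-5002. KIF15 had the smallest difference of TCE-5002 from namoline, -0.89 (SE 0.21, adjusted p 0.00879). KIF2C, the chromokinesin KIF4A and KIF23, part of the centralspindlin complex, fell with TCE-5002, at -1.54 (adjusted p 3.13e-05), -1.76 (adjusted p 1.45e-05) and -0.68 (adjusted p 0.00484), and none of the 3 passed with namoline.

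The 7 spindle-associated genes fell with TCE-5002 without exception, and none passed with namoline. TPX2, which activates Aurora A on spindle microtubules (ENSG00000088325, chromosome 20, 31739271 to 31801805), was at 95.5 and 80.6 CPM with R1881 alone, 75.4 and 105 with namoline, 37.7 and 32.1 with TCE-5002 and 27.6 and 24.4 with the combination. Namoline spanned the R1881 libraries, and TCE-5002 and combination libraries followed below without overlap. TPX2 had 0.02 (adjusted p 0.933) with namoline (95% interval -0.31 to 0.35), -1.34 (SE 0.16, adjusted p 2.67e-05) with TCE-5002 and -1.79 (SE 0.16, adjusted p 1e-06) with the combination. HMMR, a hyaluronan-binding protein of spindle poles, fell with TCE-5002, at -2.07 (SE 0.2, adjusted p 3.33e-06) and lay furthest from namoline in this group, -1.91 (SE 0.19, adjusted p 3.52e-05). CKAP2 had the smallest such difference, -0.70 (SE 0.16, adjusted p 0.0073). ASPM of spindle poles, DLGAP5 (HURP), the bundling protein PRC1 and NUSAP1 fell with TCE-5002, at -1.86 (adjusted p 6.97e-05), -1.75 (adjusted p 2.78e-05), -0.61 (adjusted p 0.00272) and -0.77 (adjusted p 0.00112).

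Both genes grouped under cytokinesis rose with namoline and fell with TCE-5002. KIF14, a kinesin of cytokinesis placed with the kinesins above, fell with either inhibitor. ECT2, which activates RhoA at the cell equator, had 0.44 (SE 0.16, adjusted p 0.0386) and -0.46 (SE 0.16, adjusted p 0.0327), and ANLN, a scaffold of the contractile ring, 0.85 (SE 0.19, adjusted p 0.00321) and -0.64 (SE 0.19, adjusted p 0.0185). Against namoline, TCE-5002 gave -0.90 (adjusted p 0.00145) for ECT2 and -1.49 (adjusted p 0.000175) for ANLN.

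Among genes of mitotic chromosome structure, MKI67 (Ki-67, which coats mitotic chromosomes and is used as a proliferation marker; ENSG00000148773, chromosome 10, 128096659 to 128126385) was at 160.3 and 119 CPM with R1881 alone, 180.3 and 222 with namoline, 51.9 and 51.4 with TCE-5002 and 55 and 32.5 with the combination. Namoline libraries were above R1881 alone, and TCE-5002 and combination libraries overlapped far below. MKI67 had 0.51 (adjusted p 0.0558) with namoline, -1.44 (SE 0.2, adjusted p 9.38e-05) with TCE-5002 and, between the single inhibitors, the largest difference of the 53, -1.95 (SE 0.2, adjusted p 3.98e-05). TOP2A (topoisomerase II alpha, which untangles sister chromatids; ENSG00000131747, chromosome 17, 40388516 to 40417950) was at 133 and 109 CPM with R1881 alone, 125 and 159.8 with namoline, 60.1 and 55 with TCE-5002 and 46.5 and 30.2 with the combination. One namoline library lay inside the R1881 range and one above it, whereas all libraries with TCE-5002 were below it. The log2 values were -1.07 (SE 0.18, adjusted p 0.000341) with TCE-5002, -1.68 (SE 0.18, adjusted p 4.4e-06) with the combination and -1.29 (SE 0.18, adjusted p 0.000258) between the single inhibitors. NCAPG, a condensin I subunit, had 0.46 (adjusted p 0.0446) with namoline and -1.17 (adjusted p 0.000161) with TCE-5002.

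Of the transcription factors of the G2/M program, FOXM1 fell with TCE-5002 and MYBL2 did not pass, and both fell with the combination. FOXM1 (ENSG00000111206, chromosome 12, 2857681 to 2877155) was at 89 and 77.4 CPM with R1881 alone, 68.4 and 105 with namoline, 35.2 and 46.2 with TCE-5002 and 25.2 and 21.2 with the combination. Namoline spanned R1881, and the TCE-5002 and combination libraries were lower, in that order. It fell to a log2 fold change of -1.03 (SE 0.18, adjusted p 0.000604) with TCE-5002 and -1.87 (SE 0.19, adjusted p 2.64e-06) with the combination. MYBL2 (B-MYB; ENSG00000101057, chromosome 20, 43667019 to 43716496) was at 32.9 and 27.8 CPM with R1881 alone, 61.9 and 95.9 with namoline, 34.6 and 47.5 with TCE-5002 and 12.9 and 10.1 with the combination. Its TCE-5002 libraries were above R1881 alone, namoline libraries were above both, and combination libraries were the lowest. MYBL2 rose with namoline, 1.36 (SE 0.2, adjusted p 0.000137), had 0.43 (adjusted p 0.107) with TCE-5002 and fell with the combination, -1.42 (SE 0.22, adjusted p 9.83e-05). The difference of TCE-5002 from namoline was -1.07 (SE 0.18, adjusted p 0.0013) for FOXM1 and -0.93 (SE 0.2, adjusted p 0.00549) for MYBL2.

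**Figure D5:**
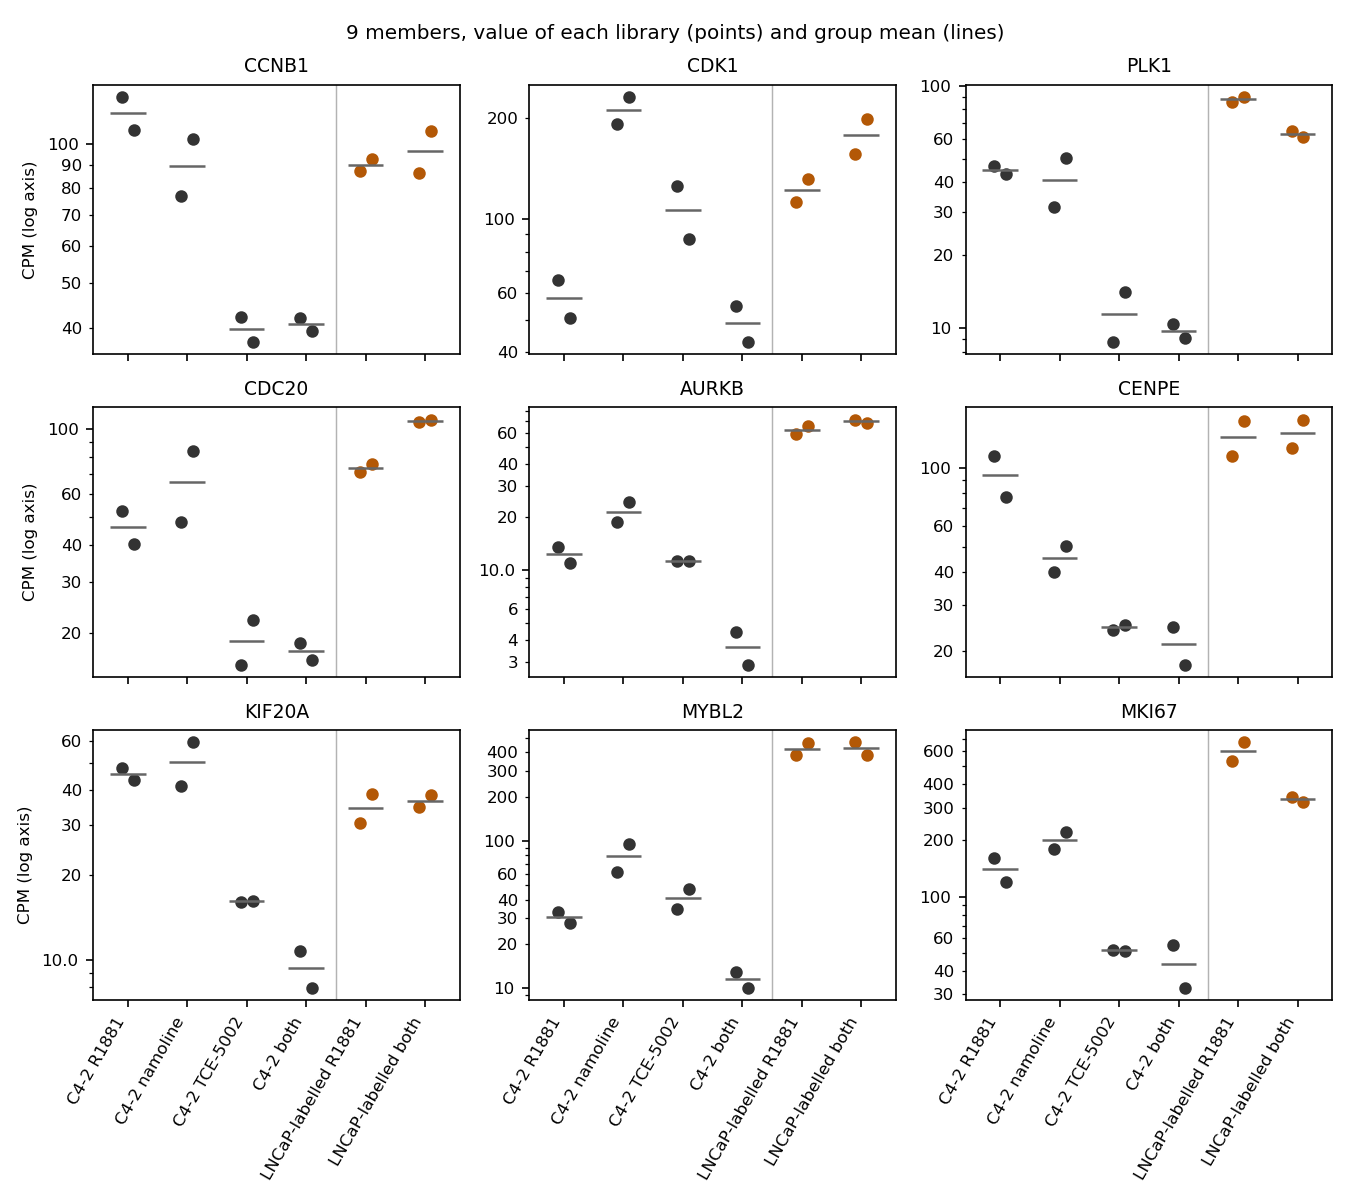
CPM (log axis, ranges differ between panels) of 9 members in each library (points) with group means (lines), C4-2 in dark grey and LNCaP-labelled in orange. CCNB1, PLK1, CDC20, CENPE, KIF20A and MKI67 are low in both C4-2 groups with TCE-5002, while CDK1, AURKB and MYBL2 are high with namoline and have their lowest mean with the combination.

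The combination was then set against each inhibitor. Against namoline, 52 of 53 genes were lower (29% of all genes), with a median of -1.90. Against TCE-5002, 28 were lower and 1 was higher (28.7% and 26.4% of all genes), with a median of -0.54 that ran from -0.91 without combination replicate 1 to -0.32 without replicate 2. Those furthest below TCE-5002 were MYBL2 at -1.85 (SE 0.22, adjusted p 5.66e-06), SPC25 at -1.69 (adjusted p 0.000232), AURKB at -1.63 (adjusted p 2.67e-05) and BIRC5 at -1.50 (adjusted p 2.27e-05). CCNB1 at 0.01 (adjusted p 0.956) with a 95% interval from -0.30 to 0.32, NUSAP1 at 0.00 (adjusted p 0.985) and BUB1 at -0.13 (adjusted p 0.492) did not pass. Without combination replicate 2, 12 were lower and 1 was higher than with TCE-5002 alone. The interaction, which sets the log2 fold change of the combination against the sum of those of the single inhibitors, passed below 0 in 29 genes and above 0 in 4 (27.9% and 25.6% of all genes), with a median of -0.77. It was lowest for MYBL2, -3.21 (SE 0.3, adjusted p 5.83e-07), and CDK1, -2.99 (SE 0.26, adjusted p 2.96e-07), followed by SPC25 at -2.98 (adjusted p 1.47e-05), AURKB at -2.41 (adjusted p 9.08e-06) and MAD2L1 at -2.35 (adjusted p 1.95e-06). For these 5 no single inhibitor had an estimate that passed below 0, and AURKB, MYBL2, SPC25 and MAD2L1 fell with the combination. The 4 that passed above 0 were CENPE at 0.84 (adjusted p 0.0158), KIF18A at 0.99 (adjusted p 0.0307), CDC25B at 0.71 (adjusted p 0.0145) and CCNB2 at 0.60 (adjusted p 0.0247), which had fallen with TCE-5002. The number above 0 was not steady. With correction for GC content the interaction passed below 0 in 31 genes and above 0 in 2. With RLE scaling of library sizes it passed in 28 and 5. Its median ran from -1.02 without combination replicate 1 to -0.44 without namoline replicate 2.

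In the LNCaP-labelled libraries the same combination went with higher levels of many of these genes, beside the lower summed luminal markers given above, whose part was not tested. The summed level was 6477 and 7390 CPM with R1881 alone (mean 6934 ± 646, SD, n = 2) and 7090 and 7793 with the combination (mean 7441 ± 497), so the groups overlapped in sum. By gene, 27 rose (28% of all 17565 genes tested) and 11 fell (28.2%), 15 did not pass, and the median was 0.31. Of those that rose, 5 did so at least 2-fold, a share of the members near that of all genes (7.44%). Without the combination library whose alignment name lacks TCE-5002, 30 rose and 10 fell, 6 were at least 2-fold higher and the median was 0.42. The number at least 2-fold was 3 without R1881 replicate 1 or without combination replicate 2, and 2 when GC content was corrected for. The 5 were HMMR at 1.5 (SE 0.12, adjusted p 6.83e-12), NUF2 at 1.36 (SE 0.12, adjusted p 1.75e-11), ECT2 at 1.23 (adjusted p 2.81e-11), DLGAP5 at 1.04 (adjusted p 4.99e-09) and BUB1B at 1.02 (adjusted p 1.79e-09). HMMR was at 33.8 and 42.6 CPM with R1881 alone and 91 and 116 with the combination, without overlap. Checkpoint and anaphase genes rose in 7 of 9 cases, among them BUB1 from 59.5 and 68.2 to 104 and 117 CPM, 0.85 (SE 0.11, adjusted p 5.13e-08), and CDC20 from 71.3 and 76.2 to 105 and 108, 0.59 (SE 0.1, adjusted p 1.17e-05). In the spindle group 6 of 7 rose, among them TPX2 from 168 and 198 to 269 and 283 CPM, 0.65 (SE 0.11, adjusted p 4.18e-06). CDK1 was at 113 and 132 CPM with R1881 alone and 157 and 199 with the combination and rose by 0.60 (SE 0.11, adjusted p 3.01e-05). KIF11 went from 127 and 148 to 172 and 177 CPM, 0.40 (SE 0.1, adjusted p 0.00149), and TOP2A from 767 and 970.1 to 944 and 1124, 0.31 (SE 0.12, adjusted p 0.0335), the latter with overlapping libraries.

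The 11 that fell there included MKI67 and FOXM1. MKI67 was at 533 and 671 CPM with R1881 alone and 344 and 323 with the combination and fell to a log2 fold change of -0.79 (SE 0.12, adjusted p 5.7e-07). FOXM1 was at 266 and 278 CPM with R1881 alone and 166 and 156 with the combination, -0.70 (SE 0.1, adjusted p 7.77e-07). Neither overlapped. PLK1 fell from 85.7 and 90.0 to 65.3 and 61.7 CPM, -0.41 (SE 0.11, adjusted p 0.00131), and BIRC5 from 206 and 224 to 147 and 154, -0.46 (SE 0.1, adjusted p 0.000306), while INCENP, CDCA8, ESPL1, CENPF, KIF14, KIF18B and CKAP2 had log2 values from -0.55 to -0.25. INCENP was -0.25 (adjusted p 0.0434) and turned to 0.06 (adjusted p 0.577) when GC content was corrected for. Among the 18 genes with values given for every library, CCNB1 (87.3 and 92.6 CPM with R1881 alone and 86.2 and 106 with the combination), CCNA2 (102 and 109.7 CPM with R1881 alone and 93.5 and 116 with the combination) and AURKA (44 and 51 CPM with R1881 alone and 43.8 and 52.2 with the combination) overlapped between the groups and did not pass. So did CENPA (13.3 and 16.7 CPM with R1881 alone and 14.2 and 15.5 with the combination), CENPE (111 and 151 CPM with R1881 alone and 119 and 153 with the combination), KIF20A (30.5 and 38.75 CPM with R1881 alone and 35 and 38.5 with the combination) and MYBL2 (381 and 463 CPM with R1881 alone and 467 and 382 with the combination). AURKB, at 58.9 and 65.4 CPM with R1881 alone and 71.3 and 67.8 with the combination, did not overlap but missed the threshold, 0.22 (adjusted p 0.0824).

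The difference between the lines in the combination effect was tested directly. It was lower in C4-2 than in the LNCaP-labelled libraries for 51 of 53 genes (25.9% of the 19763 genes tested were lower and 21.7% higher), and by at least 2-fold for 46 (13.9%), with a median of -2.04 beside -0.1 over all genes. The largest differences were HMMR at -3.38 (SE 0.23, adjusted p 4.78e-11), NUF2 at -3.29 (adjusted p 3.87e-11), DLGAP5 at -3.25 (adjusted p 6.42e-11) and ASPM at -3.15 (adjusted p 7.02e-10). INCENP at 0.15 (adjusted p 0.383) and CKAP2 at -0.35 (adjusted p 0.0688) did not pass. Without the library whose alignment name lacks TCE-5002, 52 passed and the median was -2.09.

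Without inhibitor the lines also differed. With R1881 alone, 43 of the 53 genes were higher and 5 lower in the LNCaP-labelled libraries than in C4-2 (39% and 37.8% of all genes), with a median of 1.28. MYBL2 differed most, from 32.9 and 27.8 CPM in C4-2 to 381 and 463, 3.76 (SE 0.13, adjusted p 5.29e-18), followed by TOP2A with 133 and 109 against 767 and 970.1, 2.81 (SE 0.15, adjusted p 1.97e-14). KIF15 at 2.71 (adjusted p 1.07e-14), CCNA2 at 2.64 (adjusted p 2.7e-15) and KIF18B at 2.61 (adjusted p 1.58e-14) came next. The 5 lower ones were HMMR at -1.58 (SE 0.16, adjusted p 3.87e-09), CCNB2 at -0.81 (adjusted p 4.92e-07), KIF20A at -0.43 (adjusted p 0.00373), CCNB1 at -0.41 (adjusted p 0.00105) and PTTG1 at -0.39 (adjusted p 0.00407). Per kb of exon, MYBL2 (152 CPM per kb) and TOP2A (135) stood highest in the LNCaP-labelled libraries, in place of CCNB1 in C4-2. Summed luminal markers were lower and summed mesenchymal markers higher in the same libraries, with KLK3 and COL1A1 going the other way, as given above. The part of the markers in these line differences was not tested.

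Other cell cycle genes were taken from lists made for comparison. Of 58 further G2/M and mitosis genes, 46 were lower with TCE-5002 than with namoline and none was higher, with a median of -0.98, where 8.91% of all genes tested were lower and 9.25% higher, the shares that the counts of the other lists below are also to be set against. GTSE1, a microtubule-binding protein of G2, was the lowest at -1.82 (SE 0.20, adjusted p 4.73e-05), with 22.7 and 18.9 CPM with R1881 alone, 20.2 and 25.4 with namoline, 5.70 and 7.13 with TCE-5002 and 4.89 and 3.57 with the combination. CENPN, of the inner kinetochore, was the highest at 0.32 (adjusted p 0.0735). Against R1881 alone, 26 of the 58 rose and 1 fell with namoline, and 8 rose and 29 fell with TCE-5002 (of all genes, 18.7% rose and 16.3% fell with namoline and 19.9% rose and 16.7% fell with TCE-5002). Of 37 S phase and DNA replication genes, 36 rose and 1 fell with namoline (median 1.78), and 28 rose and 1 fell with TCE-5002 (median 0.82). The median of the 53 genes had the other direction with TCE-5002 (-1.02) and the same direction with namoline (0.22). TCE-5002 lay below namoline in 30 of the 37, furthest for ORC1 of the origin recognition complex, at -2.12 (SE 0.26, adjusted p 0.000107), and least for the polymerase subunit POLE, at -0.12 (adjusted p 0.592). Among 22 MuvB, DREAM and E2F regulators, 9 were lower with TCE-5002 than with namoline, E2F7 the lowest at -1.25 (adjusted p 0.000245) and E2F5 the highest at 0.49 (adjusted p 0.0923). Among 22 subunits of the anaphase-promoting complex and cohesin, 5 were lower and 2 higher, with a median of -0.07, the share higher being near that over all genes. STAG1 of cohesin was the lowest at -1.14 (adjusted p 6.8e-05) and ANAPC16 the highest at 0.49 (adjusted p 0.0144).

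CDK inhibitors and p53 pathway genes (12 tested) had 4 lower and 3 higher with TCE-5002 than with namoline. CDKN1A (p21, which inhibits cyclin-dependent kinases) was at 58.2 and 74.4 CPM with R1881 alone, 240.2 and 182 with namoline, 92.3 and 102 with TCE-5002 and 1457 and 1546 with the combination. It was raised in all 3 treated groups without overlap with R1881 alone, least with TCE-5002 and most with the combination, where the sum of the 53 genes was lowest. The log2 fold change was 1.66 (SE 0.15, adjusted p 1.57e-06) with namoline and 0.55 (SE 0.15, adjusted p 0.00944) with TCE-5002, a difference of -1.11 (SE 0.15, adjusted p 0.000197). In the LNCaP-labelled libraries CDKN1A was at 122 and 129.6 CPM with R1881 alone and 83 and 70.1 with the combination, with a log2 fold change of -0.66 (SE 0.11, adjusted p 3.62e-06). In the same list SFN was lowest with TCE-5002 against namoline, at -1.96 (adjusted p 0.0375), at levels under 1 CPM, and CDKN1C highest, at 1.5 (adjusted p 0.00288). The part of CDKN1A in the levels of the 53 genes was not tested.

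By promoter letters, the 36 genes with CHR letters had a median TCE-5002 difference from namoline of -1.25 and the 11 without them one of -1.16, and with the combination the medians were -1.55 and -1.76. The 4 with E2F letters had medians of 0.34 with namoline and -0.57 with TCE-5002, against 0.22 and -1.07 in the 43 without, over a range from -0.91 (CENPA) to 1.84 (CDK1) with namoline. These are descriptions of few genes, and no difference was tested. Counting used no strand, and reads over exons of 2 genes were left out, which touches NCAPG most (33.14% of its length is shared with LCORL), then SGO1 (17.74%, with SGO1-AS1), FOXM1 (15.94%, with ITFG2), PLK1 (11.62%, with an antisense gene), BUB1B (10.21%, with BUB1B-PAK6), CDC25C (9.62%, with FAM53C) and CCNA2 (9.08%, with EXOSC9). UBE2C has processed copies such as UBE2CP5, and PTTG1, KIF4A and CDC20 have near-identical copies too, so that their counts are uncertain where reads could match either.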

How the data were processed

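The libraries were made by the authors from poly(A) RNA. Paired reads were quality-filtered, trimmed (Trim Galore) and aligned to GRCh38 (STAR). What the authors deposited are raw counts, 1 whole number per gene, from featureCounts 1.5.0-p1 with the Ensembl 83 annotation, without a strand option, 1 library per file. Groups were taken from the titles, since a treatment field describes siRNA work that was not analysed here.

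From these counts, genes were filtered with filterByExpr, scaled with TMM and tested with edgeR 4.0.16 (limma 3.58.1, R 4.3.3), quasi-likelihood, Benjamini-Hochberg adjustment over all genes, threshold 0.05. The study's filter of at least 2-fold was counted beside it. The 8 C4-2 libraries were fitted together, the 4 LNCaP-labelled ones alone, and the line comparisons on the 8 libraries with R1881 or the combination. With 2 libraries per group, the spread of a gene rests partly on what is shared across genes. The study calls them biological replicates; the labels do not say how they were made. Steps were tested on simulated data. CPM used TMM over all 12 libraries. Promoters came from RefSeq.

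The members and lists were chosen with earlier results of these data known. Values in every library were given for 18 fixed members; further members were named by role for the largest or smallest difference of TCE-5002 from namoline or for moving against the majority, and the others by value. Genes of other lists were CDKN1A and each list's extremes. Alternatives were RLE scaling, no filter, DESeq2 1.42.0, the likelihood ratio test, a replicate block, correction for GC content (lowess span 0.3), a fit on the libraries compared and leaving out each library.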

Additional observations from a re-analysis of the deposited data

Results flagged for a closer look

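The interaction of the inhibitors in C4-2 was tested as the combination minus each single inhibitor plus R1881. It passed in 33 of the 53 genes, 29 below 0 and 4 above 0. Of all genes, 27.9% passed below 0 and 25.6% above 0, so that passing in itself was common over all genes. The split by direction was more uneven among the 53. With correction for GC content it was 31 below 0 and 2 above, so the number above 0 was not steady. The log2 difference was -3.21 for MYBL2, -2.99 for CDK1, -2.41 for AURKB, -1.72 for BIRC5 and -1.53 for CCNA2. It was -0.93 for KIF20A, -0.88 for FOXM1, -0.83 for KIF11, -0.83 for TOP2A and -0.77 for MKI67, and 0.84 for CENPE, the one of the genes with values given for every library that passed above 0.

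The combination effect differed between C4-2 and the LNCaP-labelled libraries, by a test of the difference itself, in 51 of the 53 genes, all lower in C4-2, where 25.9% of all genes passed as lower and 21.7% as higher. Among the kinetochore and checkpoint genes the log2 difference was -2.81 for CENPA, -2.34 for CENPE, -2.36 for BUB1 and -2.09 for CDC20. It was -2.51 for KIF20A and -2.05 for KIF11 among the kinesins, -2.49 for TPX2 of the spindle and -2.04 for TOP2A of chromosome structure. The kinases and passenger genes had -2.04 for AURKB, -1.89 for BIRC5, -1.86 for AURKA and -1.86 for PLK1. The remaining values were -1.75 for CCNB1, -1.54 for MYBL2, -1.22 for FOXM1, -1.11 for CCNA2, -0.95 for MKI67 and -0.94 for CDK1. Among the genes with values given for every library, MKI67, FOXM1, PLK1 and BIRC5 fell with the combination in both lines. BUB1, CDC20, TPX2, KIF11 and TOP2A fell in C4-2 and rose in the LNCaP-labelled libraries. The share of all genes with either pattern was not counted. Marker levels that differ between these libraries are given beside the line comparisons, and cell line cannot be told apart from whatever else differs between the 2 sets of cells.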

How the results depend on the processing

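Of the counts and medians over the 53 genes, 235 counts and 130 medians under the alternatives stayed within 1.5 times the main count or within the replicate spread of the median (SD 0.176); 8 counts and 22 medians moved and 1 median reversed. Of values for single genes, 5526 kept direction and side of the threshold, 122 came to pass, 164 no longer passed and 2 reversed. Leaving out 1 library at a time, the number passing ran from 15 to 34 with namoline (15 without namoline replicate 2, where the median turned to -0.03, against 0.38 without R1881 replicate 1), 36 to 53 for TCE-5002 against namoline, 13 to 36 for the combination against TCE-5002 and 21 to 36 for the interaction (13 and 21 without combination replicate 2). The number at least 2-fold ran from 22 to 42 for TCE-5002 against namoline (with namoline against R1881 from 6 to 10) and from 3 to 6 with the LNCaP-labelled combination (3 without R1881 replicate 1 or combination replicate 2). GC correction, alone or with the block, gave 2 in place of 5. INCENP in the LNCaP-labelled libraries reversed to 0.06 under GC correction alone (adjusted p 0.577) and with the block (adjusted p 0.604). The cause was not tested.

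Replicate numbers were shared between groups. Same-numbered libraries correlated in their deviations from the group mean at 0.08 in the LNCaP-labelled libraries and at -0.02 to 0.37 in C4-2. Such values cannot settle whether the numbers pair the samples, and the labels do not say. With the replicate block, 29 genes passed with namoline, 43 with TCE-5002, 53 between them, 50 with the C4-2 combination, 35 for the combination against TCE-5002, 34 for the interaction, 37 with the LNCaP-labelled combination and 51 for the line difference.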

Other observations

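The kinases that hold CDK1 inactive in G2, WEE1 and PKMYT1, belong to the list of further G2/M genes and were picked out after their values were seen. WEE1 was at 19.4 and 19.2 CPM with R1881 alone, 28.1 and 37.4 with namoline, 19.2 and 16.5 with TCE-5002 and 58.4 and 63.9 with the combination. The combination libraries stood above all others in C4-2, 1.64 on the log2 scale against R1881 (SE 0.15, edgeR adjusted p 1e-06), whereas TCE-5002 alone had -0.12 (SE 0.15, edgeR adjusted p 0.589). PKMYT1 was at 6.47 and 6.11 CPM with R1881 alone, 21.9 and 32.1 with namoline, 9.07 and 15.4 with TCE-5002 and 6.14 and 4.01 with the combination. It rose with namoline, 2.08 (SE 0.26, edgeR adjusted p 3.06e-05), and with TCE-5002, 0.96 (SE 0.27, edgeR adjusted p 0.0115), and the combination libraries were below R1881 or within its range, with -0.33 (SE 0.29, edgeR adjusted p 0.356). The interaction was 1.01 (SE 0.21, edgeR adjusted p 0.00101) for WEE1 and -3.37 (SE 0.38, edgeR adjusted p 3.72e-06) for PKMYT1.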
